A study of Mus musculus with 2 samples.

Results

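The cells described here are the mesothelial cells and fibroblasts of mouse liver, chosen from 2 single-cell libraries by the transcripts they carried. A cell barcode was kept with 500 or more UMIs (unique molecular identifiers, each counting 1 captured transcript), 200 or more detected genes and no more than 20% of its UMIs on mitochondrial genes. It also needed at least 3 UMIs over 7 genes (Msln, Upk3b, Upk1b, Lrrn4, Dcn, Col1a2 and Col3a1), no Ptprc UMI, no Epcam UMI and fewer than 3 UMIs of the endothelial genes Stab2, Clec4g and Kdr. These measured counts chose the cells, so the levels of those genes are given as a description only. The rule found 273 of the 27814 barcodes that passed the first 3 limits, of 33125 in all, with 190 in the Hep-ADKTg library and 83 in the Hep-ADKWT library. Of these, 102 had at least 1 UMI of Msln or Upk3b and are called mesothelial cells, with 53 in Hep-ADKTg and 49 in Hep-ADKWT. The remaining 171 cells are called the other cells, with 137 in Hep-ADKTg and 34 in Hep-ADKWT.

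Mesothelial cells form a single flat sheet over the liver capsule. They carry keratins and cell junctions like an epithelium, and collagens and the transcription factor WT1 like a mesenchymal cell. Fibroblasts lie in the capsule and the portal tracts and make fibrillar collagens, decorin and elastic fibre proteins. Hepatic stellate cells line the sinusoids, store vitamin A and also make decorin and collagen, so a rule that uses those transcripts can take in all 3 kinds of cell.

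The libraries hold non-parenchymal liver cells of male mice, 5 months old and fed standard chow, with no drug or dietary treatment. Hep-ADKTg mice overexpress adenosine kinase, the enzyme that phosphorylates adenosine to AMP, in hepatocytes under the albumin promoter, and Hep-ADKWT mice were the genotype controls. The labels give no number of mice behind a library. With 1 library per genotype there is no replicate, so no difference between genotypes could be tested, and genotype and library cannot be told apart.

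The 2 matrices held 96481752 UMIs in 17462 barcodes for Hep-ADKTg and 97135016 UMIs in 15663 barcodes for Hep-ADKWT. Kept barcodes had a median of 2812 UMIs in Hep-ADKTg and 4915 in Hep-ADKWT. The median share of their UMIs that came from 29 hepatocyte genes was 7.99% in Hep-ADKTg and 0.401% in Hep-ADKWT. Adk, the targeted gene, stood at 531 CPM (counts per 1000000 UMIs of the set) in the 2158 hepatocyte barcodes of Hep-ADKTg. In the 120 hepatocyte barcodes of Hep-ADKWT it stood at 490 CPM, so its level there did not separate the labels. Whether the counts include transcripts of the transgene is not stated, so these levels do not check overexpression in hepatocytes. In mesothelial cells Adk stood at 242 CPM in Hep-ADKTg (81 UMIs, 28 of 53 cells) and at 117 CPM in Hep-ADKWT (40 UMIs, 27 of 49 cells). Barcodes with a Ptprc UMI, which mark leukocytes, had 136 CPM of Adk in Hep-ADKTg and 44.2 CPM in Hep-ADKWT. Hepatocyte genes were higher in the same Hep-ADKTg barcodes, and their part in the Adk levels was not tested. The libraries shared 88 barcode sequences, none of them a member in both.

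The label covered the mesothelial cells but only part of the other cells. All 53 Hep-ADKTg and all 49 Hep-ADKWT mesothelial cells had more UMIs of the 28 listed mesothelial markers outside the rule than of the fibroblast or the stellate list. The summed mesothelial list stood at 26003 CPM in Hep-ADKTg mesothelial cells and 34765 CPM in Hep-ADKWT ones, with all 28 genes detected in each. The other cells fell apart into 3 sets when each cell was placed by whichever of 2 marker lists gave it more UMIs, with at least 3 UMIs of that list and at most 20000 UMIs in the cell. Cells led by the list of 22 hepatic stellate markers numbered 76 in Hep-ADKTg and 22 in Hep-ADKWT. Cells led by the list of 24 fibroblast markers outside the rule numbered 50 in Hep-ADKTg and 8 in Hep-ADKWT. So 98 of the 171 other cells had more UMIs of the stellate list and 58 had more of the fibroblast list, and these are called stellate-marker and fibroblast-marker cells. The remaining 9 Hep-ADKTg and 3 Hep-ADKWT cells had too few list UMIs, and 2 Hep-ADKTg and 1 Hep-ADKWT other cells exceeded 20000 UMIs. This split was chosen after the levels had been seen, and the genes of both lists only describe it. The mesothelial list took no part in it, and it had more UMIs than either other list in some of these cells although they had no Msln or Upk3b UMI. Such cells led by the mesothelial list numbered 22 of the 137 other cells in Hep-ADKTg and 4 of the 34 in Hep-ADKWT. Among fibroblast-marker cells they were 9 of 50 in Hep-ADKTg, with 12 to 167 UMIs of the mesothelial list, and 1 of 8 in Hep-ADKWT, with 332. Among stellate-marker cells they were 3 of 76 in Hep-ADKTg and 1 of 22 in Hep-ADKWT, with 4 to 8 such UMIs in Hep-ADKTg and 13 in Hep-ADKWT. The fibroblast-marker set thus also holds cells led by the mesothelial list. Its results were also computed without these cells, an alternative chosen after the data were seen. The mesothelial list includes C3, found in 48 of 50 Hep-ADKTg and 8 of 8 Hep-ADKWT fibroblast-marker cells. C3 was also found in 58 of 76 Hep-ADKTg and 8 of 22 Hep-ADKWT stellate-marker cells, and its part in these counts was not tested.

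**Figure D1:**
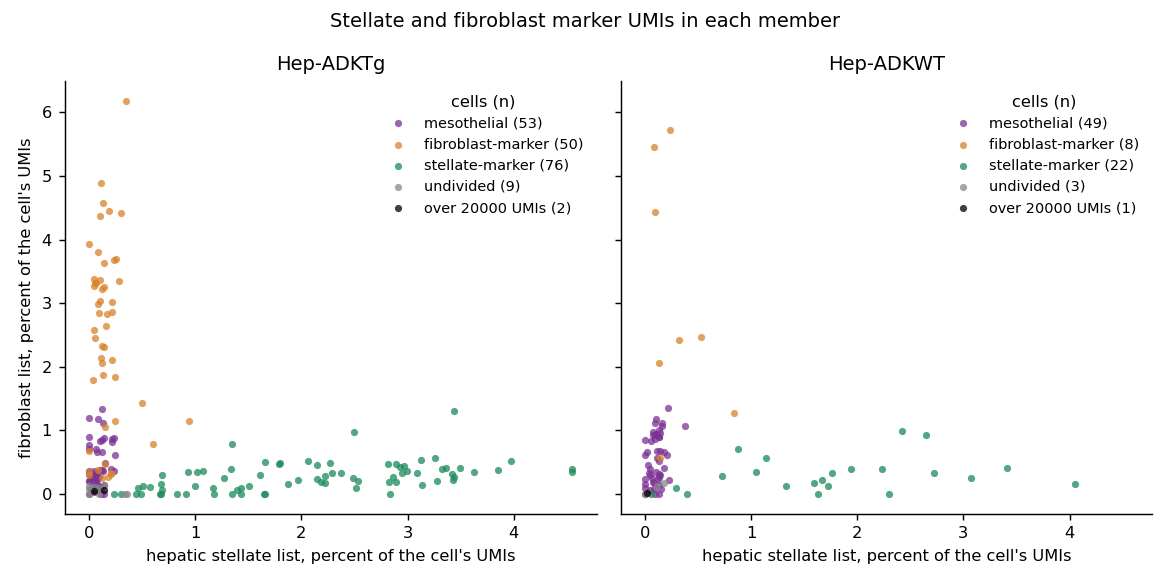
Share of each member's UMIs on the hepatic stellate list (x axis, percent) and on the fibroblast list (y axis, percent), with Hep-ADKTg in the left panel and Hep-ADKWT in the right one. Each point is a cell, coloured by set. Stellate-marker cells spread along the x axis and fibroblast-marker cells along the y axis, with few cells high on both, while mesothelial cells stay low on both.

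Stellate-marker cells carried Reln, a secreted signalling glycoprotein, at 2609 CPM in Hep-ADKTg and 1916 CPM in Hep-ADKWT, and no Reln UMI was found in mesothelial cells of either library. Lrat, which esterifies retinol for storage, stood at 1052 CPM in Hep-ADKTg stellate-marker cells and 1214 CPM in Hep-ADKWT ones. Fibroblast-marker cells carried Dpt, a dermatopontin that binds collagen fibrils, at 1942 CPM in Hep-ADKTg and 1459 CPM in Hep-ADKWT. Pi16, a marker of adventitial fibroblasts in several mouse tissues, stood at 450 CPM in Hep-ADKTg and 431 CPM in Hep-ADKWT. Each marker was thus found in its set in both libraries. The rule's matrix genes did not divide the sets: Dcn, which encodes decorin, was at 14871 CPM in Hep-ADKTg stellate-marker cells and 16335 CPM in Hep-ADKWT ones, and at 5983 CPM in Hep-ADKTg mesothelial cells and 10551 CPM in Hep-ADKWT ones. Of the listed smooth muscle genes, Cnn1, Actg2 and Pln had no UMI in any of the 3 sets of either library. The list was not absent as a whole, since its member Tagln was found in stellate-marker cells of both libraries.

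Levels are CPM of the UMIs summed over the cells of a set in a library. Intervals are 95% and exact (Poisson for a level, Clopper-Pearson for a share, conditional binomial for a ratio), and they cover counting error only, not differences between mice or preparations. A ratio is the log2 of Hep-ADKTg CPM over Hep-ADKWT CPM, given for genes with at least 30 UMIs over both libraries. A gene is called past 2-fold when that ratio exceeds 1 in size. Where 1 side had no UMI, 3 counts stand in for it and the ratio is a lower bound. Where no cell of a set had a UMI, the share that this allows is given as 3 cells of its total in place of an interval.

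Over all the other cells, 338 of 4113 genes were past 2-fold higher in Hep-ADKTg (8.22%) and 114 were past 2-fold lower (2.77%). A single Hep-ADKWT barcode of 51191 UMIs held 27.9% of the summed UMIs there, so the stellate-marker and fibroblast-marker cells are described apart and without it.

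Members made up 1.28% of the kept Hep-ADKTg barcodes (1.10 to 1.47) and 0.640% of the kept Hep-ADKWT barcodes (0.510 to 0.793). Mesothelial cells were 27.9% of the members in Hep-ADKTg (21.6 to 34.8) and 59.0% in Hep-ADKWT (47.7 to 69.7). As a share of kept barcodes they were nearly level, 0.357% in Hep-ADKTg (0.267 to 0.466) and 0.378% in Hep-ADKWT (0.280 to 0.500). The other sets had the larger difference. Stellate-marker cells were 0.512% of kept barcodes in Hep-ADKTg (0.403 to 0.640) and 0.170% in Hep-ADKWT (0.106 to 0.257). Fibroblast-marker cells were 0.337% in Hep-ADKTg (0.250 to 0.444) and 0.0617% in Hep-ADKWT (0.0267 to 0.122). A share of captured barcodes depends on what else was captured and on the limits of the rule, and fewer cells of a type in the liver and fewer cells recovered by digestion cannot be told apart here.

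The limit on endothelial UMIs took more mesothelial barcodes from the Hep-ADKWT library than from the Hep-ADKTg library. It removed 13 Hep-ADKTg and 60 Hep-ADKWT barcodes that had a UMI of Msln or Upk3b and met every other limit. Of these, 5 in Hep-ADKTg and 29 in Hep-ADKWT had no UMI of the sinusoidal genes Stab2 and Clec4g and fell out through Kdr, the VEGF receptor gene, alone. Mesothelial members themselves had 27 Kdr UMIs in 21 of 53 Hep-ADKTg cells and 27 in 18 of 49 Hep-ADKWT cells. With Kdr not counted, an alternative chosen after the data were seen, mesothelial cells numbered 58 in Hep-ADKTg and 82 in Hep-ADKWT, which is 0.390% of kept barcodes in Hep-ADKTg and 0.633% in Hep-ADKWT. All members then numbered 200 in Hep-ADKTg and 119 in Hep-ADKWT.

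At the edge of the rule, 13 Hep-ADKTg and 6 Hep-ADKWT members had exactly 3 marker UMIs, with a median of 820 UMIs in Hep-ADKTg and 743 in Hep-ADKWT. The barcodes just outside, with exactly 2 marker UMIs and otherwise eligible, numbered 26 in Hep-ADKTg and 8 in Hep-ADKWT, with a median of 806 UMIs in Hep-ADKTg and 757 in Hep-ADKWT. Mesothelial cells rested on a median of 8 Msln plus Upk3b UMIs in Hep-ADKTg and 14 in Hep-ADKWT, and 8 Hep-ADKTg and 5 Hep-ADKWT cells had exactly 1. Msln, the surface protein mesothelin, was found in 38 of 53 Hep-ADKTg and 29 of 49 Hep-ADKWT mesothelial cells. Upk3b, an uroplakin of the mesothelial surface, was found in 47 Hep-ADKTg and 49 Hep-ADKWT cells. In B cells, which lack both, Msln was found in none of the Hep-ADKTg barcodes and 0.421% of the Hep-ADKWT ones, and Upk3b in 0.301% in Hep-ADKTg and 0.574% in Hep-ADKWT. Their median depth was 3455.5 UMIs in Hep-ADKTg and 4137 UMIs in Hep-ADKWT.

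Immediate early genes, which are transcribed within minutes of many stimuli without new protein synthesis, were higher in the Hep-ADKTg mesothelial cells. The list of 22 such genes summed to 6635 CPM in Hep-ADKTg mesothelial cells and 2493 CPM in Hep-ADKWT ones. Over single cells the list had a median of 6927 CPM in Hep-ADKTg, with a range of 451 to 24666, and of 2070 CPM in Hep-ADKWT, with a range of 0 to 5971. The median Hep-ADKTg cell thus lay above the highest Hep-ADKWT cell. Of all 3872 genes compared in mesothelial cells, 294 were past 2-fold higher in Hep-ADKTg (7.59%) and 291 were past 2-fold lower (7.52%). At any size, 37.0% were higher and 63.0% lower. Of the 16 immediate early genes compared, 15 were higher in Hep-ADKTg, 11 of them past 2-fold, and none was past 2-fold lower. The list median was 2.37, against -0.17 over all genes compared.

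Fosb and Fos, which encode subunits of the transcription factor AP-1, had the highest ratios of the list. Fosb (chromosome 7, 19302696 to 19310051, minus strand, GRCm38) had 104 UMIs in 20 of 53 Hep-ADKTg cells and 2 UMIs in 2 of 49 Hep-ADKWT cells. That is 311 CPM in Hep-ADKTg (254 to 377) and 5.84 CPM in Hep-ADKWT (0.707 to 21.1), with a log2 ratio of 5.74 (3.85 to 8.80). Fosb transcripts were thus rare in the Hep-ADKWT mesothelial cells. Fos (chromosome 12, 85473890 to 85477273, plus strand) had 274 UMIs in 42 Hep-ADKTg cells and 23 UMIs in 10 Hep-ADKWT cells. Its level was 820 CPM in Hep-ADKTg (726 to 923) and 67.1 CPM in Hep-ADKWT (42.6 to 101), a log2 ratio of 3.61 (3.0 to 4.3). The median cell had 973 CPM of Fos in Hep-ADKTg and 0 in Hep-ADKWT, whose highest cell reached 549 CPM. The 3 cells with the most Fos UMIs held 20.4% of them in Hep-ADKTg and 52.2% in Hep-ADKWT. With every cell thinned to 1000 UMIs, a Fos UMI was found in 24 of 48 Hep-ADKTg cells and 2 of 44 Hep-ADKWT cells. In B cells thinned in the same way the shares were 7.15% in Hep-ADKTg and 6.71% in Hep-ADKWT.

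The JUN partners of FOS, the zinc finger factor EGR1 and other induced factors were higher as well. Jun, the main AP-1 partner, stood at 623 CPM in 37 Hep-ADKTg cells and 126 CPM in 21 Hep-ADKWT cells, a log2 ratio of 2.31 (1.83 to 2.82). Junb stood at 404 CPM in Hep-ADKTg and 93.4 CPM in Hep-ADKWT, a log2 ratio of 2.11 (1.55 to 2.72). Egr1, a growth-factor-induced zinc finger factor, stood at 611 CPM in 41 Hep-ADKTg cells and 75.9 CPM in 11 Hep-ADKWT cells, a log2 ratio of 3.01 (2.41 to 3.66). Nr4a1, an orphan nuclear receptor, had 32 UMIs in Hep-ADKTg and 4 in Hep-ADKWT, with a log2 ratio of 3.04 (1.54 to 5.00). Atf3, a stress-induced bZIP factor, had 65 UMIs in Hep-ADKTg and 12 in Hep-ADKWT, with a log2 ratio of 2.47 (1.57 to 3.50). All 5 intervals lay above 2-fold.

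Genes that limit such responses were higher too. Zfp36, whose product destabilises AU-rich mRNAs, stood at 251 CPM in Hep-ADKTg and 38.0 CPM in Hep-ADKWT, a log2 ratio of 2.73 (1.88 to 3.70). Dusp1, a phosphatase of MAP kinases, stood at 305 CPM in Hep-ADKTg and 84.7 CPM in Hep-ADKWT, a log2 ratio of 1.85 (1.24 to 2.50). Btg2, an antiproliferative gene, stood at 602 CPM in Hep-ADKTg and 111 CPM in Hep-ADKWT, a log2 ratio of 2.44 (1.93 to 2.98). Ier2 followed with 73 UMIs in Hep-ADKTg and 7 in Hep-ADKWT and a ratio of 3.42. The rest of the list lay closer to equal: the ratios were 0.83 for Klf4, 0.29 for Jund, 0.27 for Klf6, 0.14 for Fosl2 and -0.11 for Klf2.

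**Figure D2:**
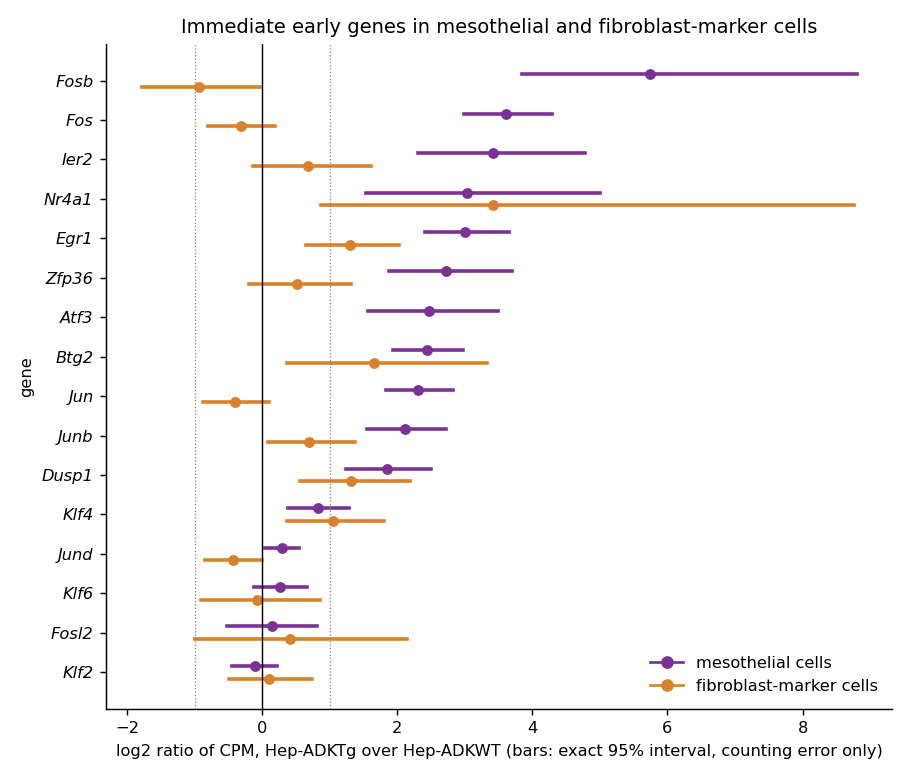
Log2 ratio of CPM, Hep-ADKTg over Hep-ADKWT (x axis), for each immediate early gene compared (y axis), in mesothelial cells (purple) and in fibroblast-marker cells (orange). Bars are exact 95% intervals for counting error, and dotted lines mark 2-fold. In mesothelial cells 11 genes lie past 2-fold on the higher side, from Fosb at 5.74 to Dusp1 at 1.85. In fibroblast-marker cells Fos, Fosb and Jun lie below 0, where 1 of the 8 Hep-ADKWT cells held 40 of 47 Fos, 17 of 18 Fosb and 41 of 48 Jun UMIs.

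The windows around the starts of 3 of these genes are shown because they were the members of the list with the highest ratios among those whose RefSeq window was searched. Each runs from 250 bases before to 50 after the start, 5′ to 3′ on the gene's own strand, in RefSeq's GRCm38.p6. Capitals mark TGACG, the core to which CREB and ATF proteins bind, or its reverse complement CGTCA.
Fosb, chr7:19309996-19310295, minus strand: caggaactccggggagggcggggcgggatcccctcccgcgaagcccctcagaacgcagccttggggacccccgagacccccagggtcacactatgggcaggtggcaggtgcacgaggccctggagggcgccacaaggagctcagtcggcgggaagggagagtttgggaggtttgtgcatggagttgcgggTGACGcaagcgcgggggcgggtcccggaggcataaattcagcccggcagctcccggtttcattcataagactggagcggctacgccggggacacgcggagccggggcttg
Fos, chr12:85473640-85473939, plus strand: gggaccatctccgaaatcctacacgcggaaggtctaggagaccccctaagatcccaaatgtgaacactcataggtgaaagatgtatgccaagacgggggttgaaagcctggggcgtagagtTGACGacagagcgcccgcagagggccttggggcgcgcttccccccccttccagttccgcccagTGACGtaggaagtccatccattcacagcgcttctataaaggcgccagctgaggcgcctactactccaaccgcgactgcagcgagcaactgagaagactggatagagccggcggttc
Nr4a1, chr15:101266596-101266895, plus strand: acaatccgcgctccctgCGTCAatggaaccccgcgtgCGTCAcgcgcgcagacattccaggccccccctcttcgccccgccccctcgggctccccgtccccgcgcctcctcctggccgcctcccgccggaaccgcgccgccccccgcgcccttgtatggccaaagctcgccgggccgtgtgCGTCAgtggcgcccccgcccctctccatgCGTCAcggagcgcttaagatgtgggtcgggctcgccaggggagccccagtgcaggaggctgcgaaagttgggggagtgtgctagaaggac
Of the 16 genes compared, 14 were searched in such a window, while Egr1 and Ier2 were not searched. Of these 14, 9 held TGACG on either strand, against 20.8% of all 32851 windows of that length. The full palindrome TGACGTCA, which contains TGACG, was found in Btg2 and Dusp1 and in 1.79% of all windows. A CArG box, the serum response factor element, was found in Zfp36 among the 14 genes searched, and in 1.63% of all windows. These matches describe letters in a window and not bound sites. Elements outside the windows, and those of the 2 genes not searched, were not looked for.

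The same list was close to equal in leukocyte and endothelial barcodes of the same libraries, and lay between in the other members, with a median ratio of 0.52 in fibroblast-marker and 0.60 in stellate-marker cells. Among fibroblast-marker cells, 1 of the 8 Hep-ADKWT cells held 184 of the 357 list UMIs of that set. The stellate-marker median rests on fewer genes than the mesothelial one. In barcodes with a Ptprc UMI, where 9.36% of all genes were past 2-fold higher and 3.09% lower, the 22 list genes had a median ratio of -0.07, with 1 gene past 2-fold higher and none lower. In endothelial barcodes, where 8.46% were past 2-fold higher and 4.41% lower, the 20 list genes compared had a median of 0.12, with 2 past 2-fold higher and none lower. Fos itself stood at 118 CPM in Hep-ADKTg and 91.2 CPM in Hep-ADKWT Ptprc barcodes. It stood at 64.5 CPM in Hep-ADKTg and 41.9 CPM in Hep-ADKWT endothelial barcodes, and at 14.7 CPM in Hep-ADKTg and 30.5 CPM in Hep-ADKWT hepatocyte barcodes. The Fos level of Hep-ADKTg mesothelial cells was thus above that of each of these 3 pools. Hep-ADKTg fibroblast-marker cells, which are not among them, had 148 Fos UMIs in 31 of 50 cells. The part of RNA from other cells in these levels was not tested.

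Depth, the deepest barcodes and the Kdr limit were each varied. Thinning left out the 5 Hep-ADKTg and 5 Hep-ADKWT mesothelial cells under 1000 UMIs, and over the thinned cells the Fos ratio was 4.71 and the Jun ratio 3.65. Without the 2 Hep-ADKTg mesothelial barcodes over 20000 UMIs, the list stood at 8099 CPM in Hep-ADKTg and 2493 CPM in Hep-ADKWT, and Fos at 1001 CPM in Hep-ADKTg and 67.1 CPM in Hep-ADKWT. With Kdr not counted, Fos stood at 793 CPM in Hep-ADKTg and 35.0 CPM in Hep-ADKWT.

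Heat shock and antioxidant genes were higher in Hep-ADKTg mesothelial cells as well. Hspa1b, an inducible HSP70 chaperone, had 106 UMIs in 25 Hep-ADKTg cells and 18 UMIs in 11 Hep-ADKWT cells, a log2 ratio of 2.59, and its near-identical neighbour Hspa1a had a ratio of 2.64, with reads that counting may have split between the pair. Hspd1 and Hspe1, the mitochondrial chaperonin and its co-chaperonin, had ratios of 1.51 and 1.06. The constitutive chaperone Hspa8 stood at 790 CPM in Hep-ADKTg and 914 CPM in Hep-ADKWT. Over all genes compared, 37.0% were higher and 7.59% past 2-fold higher. Of 12 heat shock genes compared, 9 were higher, 4 of them past 2-fold, with a median of 0.43. Of 11 antioxidant genes, 9 were higher, 5 of them past 2-fold, among them catalase (Cat) at 530 CPM in Hep-ADKTg and 105 CPM in Hep-ADKWT and the superoxide dismutase gene Sod1 at 377 CPM in Hep-ADKTg and 126 CPM in Hep-ADKWT. Sod1 stood at 813 CPM in Hep-ADKTg and 682 CPM in Hep-ADKWT hepatocyte barcodes, and all 29 hepatocyte genes were past 2-fold higher in Hep-ADKTg mesothelial cells, with a median ratio of 3.68. With hepatocyte-derived UMIs subtracted, 1 of 11 antioxidant genes was past 2-fold higher, and without the 2 Hep-ADKTg barcodes over 20000 UMIs none of 10 was. The heat shock genes past 2-fold higher were 3 of 12 after subtraction and 2 of 12 without those barcodes.

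NF-kB feedback genes and chemokines were sparse. Of 10 NF-kB targets compared 7 were higher and 2 were past 2-fold, Nfkbia, the inhibitor that retains NF-kB in the cytoplasm, at a ratio of 1.06 and Nfkbiz, a nuclear co-regulator, at 1.13. Over all genes compared, 37.0% were higher and 7.59% past 2-fold higher. The monocyte chemokine gene Ccl2 had 49 UMIs in Hep-ADKTg, all in 4 cells, and 1 UMI in Hep-ADKWT. Cxcl1, a neutrophil chemokine gene, had 26 UMIs in 11 Hep-ADKTg cells and none in Hep-ADKWT. Cxcl13, a B cell chemokine gene, ran the other way, at 215 CPM in 3 Hep-ADKTg cells and 339 CPM in 11 Hep-ADKWT cells. Of 7 chemokine and cytokine genes compared, 2 were higher and 5 lower, while 63.0% of all genes were lower. With Kdr not counted 4 of 7 were higher.

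Matrix genes lay on the lower side in Hep-ADKTg mesothelial cells. Col1a1, the alpha 1 chain of type I collagen (chromosome 11, 94936224 to 94953042, plus strand, GRCm38), had 67 UMIs in 19 of 53 Hep-ADKTg cells and 281 UMIs in 29 of 49 Hep-ADKWT cells. Its level was 201 CPM in Hep-ADKTg (155 to 255) and 820 CPM in Hep-ADKWT (727 to 922), a log2 ratio of -2.03 (-2.44 to -1.64). The median cell had no Col1a1 UMI in Hep-ADKTg and 320 CPM in Hep-ADKWT, and the highest cells reached 1042 CPM in Hep-ADKTg and 2695 CPM in Hep-ADKWT, so the cells overlapped. All 10 collagen genes compared were lower, 3 of them past 2-fold: Col1a1, the basement membrane zone collagen Col15a1 at -2.00 and the fibril-associated Col16a1 at -1.23. The list median was -0.35, against -0.17 over all genes, with 63.0% of all genes lower at any size. Col3a1, which the rule used, stood at 1009 CPM in Hep-ADKTg and 2076 CPM in Hep-ADKWT. Col1a2, also used by the rule, stood at 632 CPM in Hep-ADKTg and 1299 CPM in Hep-ADKWT. With each cell thinned to 1000 UMIs the Col1a1 ratio was -1.13.

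**Figure D3:**
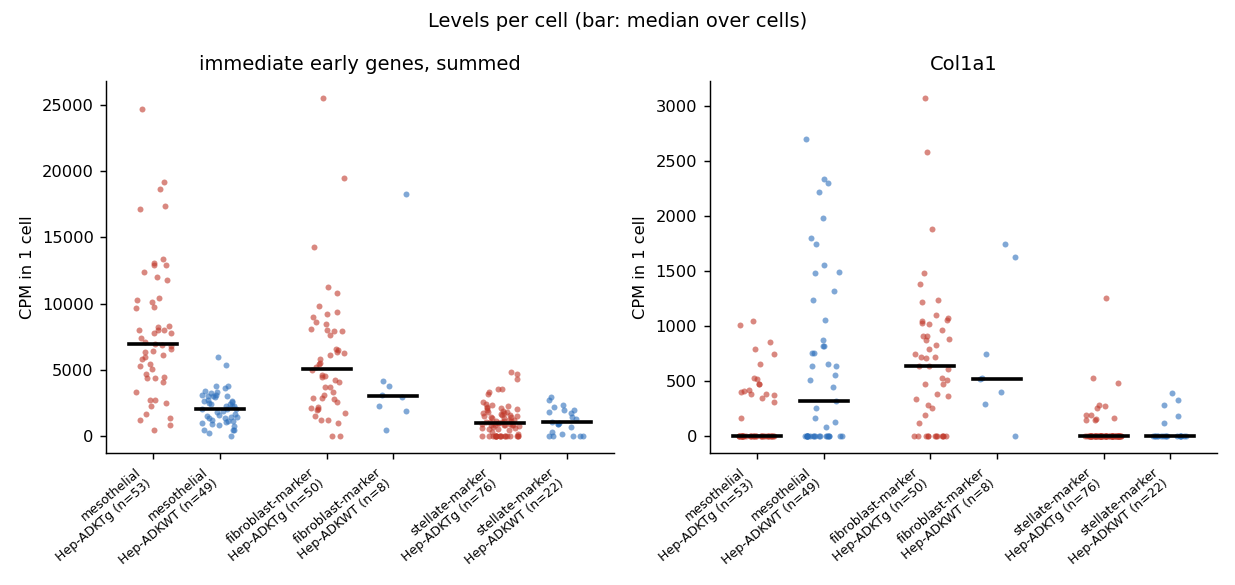
CPM in each cell (y axis) of the summed immediate early list (left panel) and of Col1a1 (right panel), in mesothelial, fibroblast-marker and stellate-marker cells of each library. Points are cells and bars are medians over cells. The mesothelial medians of the immediate early list are 6927 CPM in Hep-ADKTg and 2070 CPM in Hep-ADKWT, and of Col1a1 0 CPM in Hep-ADKTg and 320 CPM in Hep-ADKWT.

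Of 23 matrix glycoproteins and proteoglycans compared, 17 were lower and 6 higher, 3 of the lower ones past 2-fold, against 63.0% lower and 7.52% past 2-fold lower over all genes. With Kdr not counted none of 24 was past 2-fold lower. These 3 were Lama2, a laminin chain of basement membranes, at -1.96, Tnxb, a tenascin, at -1.71, and Lamb1, the laminin beta 1 chain, at -1.08. Sparc, a collagen-binding matricellular protein, stood at 970 CPM in Hep-ADKTg and 1390 CPM in Hep-ADKWT, and Fmod, a collagen-binding proteoglycan, at 242 CPM in Hep-ADKTg and 470 CPM in Hep-ADKWT. Biglycan and fibronectin lay on the other side: Bgn stood at 542 CPM in Hep-ADKTg and 333 CPM in Hep-ADKWT, and Fn1 at 386 CPM in Hep-ADKTg and 269 CPM in Hep-ADKWT. Of 11 collagen-processing genes compared 9 were lower and none was past 2-fold. The CCN matricellular genes were higher, Ccn1 at 308 CPM in Hep-ADKTg and 84.7 CPM in Hep-ADKWT. Ccn2 had 28 UMIs in 5 Hep-ADKTg cells and 3 UMIs in 3 Hep-ADKWT cells.

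All 12 mesenchymal transcription factor genes compared were lower in Hep-ADKTg mesothelial cells, 3 of them past 2-fold, with a median of -0.80. Over all genes compared, 63.0% were lower and 7.52% past 2-fold lower, with a median of -0.17. The 3 factors past 2-fold were Zeb1, a repressor of epithelial genes, at -1.55, the homeobox gene Meis1 at -1.29, and Osr1 at -1.12. Wt1, the defining factor of the mesothelium, had 123 UMIs in 36 Hep-ADKTg cells and 189 UMIs in 40 Hep-ADKWT cells, or 368 CPM in Hep-ADKTg and 552 CPM in Hep-ADKWT, a ratio of -0.58. Gata6 had a ratio of -0.64 and the nuclear receptor gene Nr2f2 one of -0.95. Factors outside the list were among the lowest genes of the set. Isl1, a LIM homeobox factor, was found in 9 Hep-ADKTg and 26 Hep-ADKWT cells, with a ratio of -2.12. Thinned to 1000 UMIs, Isl1 was found in 5 of 48 Hep-ADKTg cells and 6 of 44 Hep-ADKWT cells, too few for a ratio. Bhlhe41, a circadian repressor, was found in 3 Hep-ADKTg and 19 Hep-ADKWT cells, with a ratio of -3.33, which was -1.74 with Kdr not counted. Secreted WNT-pathway genes were lower in part, Wnt4 and Dkk3 each at -1.17, while Rspo1, which potentiates WNT signalling, stood at 323 CPM in Hep-ADKTg and 307 CPM in Hep-ADKWT.

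The surface programme of the mesothelium was present in both libraries at closer levels. Of 26 mesothelial markers outside the rule that were compared, 21 were lower and 5 higher in Hep-ADKTg, none past 2-fold, with a median of -0.42. Over all genes compared, 63.0% were lower, with a median of -0.17. Gpm6a, a membrane glycoprotein, was found in 47 of 53 Hep-ADKTg and 43 of 49 Hep-ADKWT cells, at 691 CPM in Hep-ADKTg and 911 CPM in Hep-ADKWT. Slpi, a secreted protease inhibitor, stood at 2484 CPM in 31 Hep-ADKTg cells and 2809 CPM in 30 Hep-ADKWT cells, and had 1 UMI in Hep-ADKTg and none in Hep-ADKWT stellate-marker cells. Muc16, a surface mucin, stood at 263 CPM in Hep-ADKTg and 380 CPM in Hep-ADKWT. Krt19, a keratin of simple epithelia, stood at 434 CPM in Hep-ADKTg and 832 CPM in Hep-ADKWT, while the simple epithelial keratin Krt8 stood at 162 CPM in Hep-ADKTg and 126 CPM in Hep-ADKWT.

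Complement genes were found in most mesothelial cells. C3, the central complement component, was found in all 53 Hep-ADKTg and all 49 Hep-ADKWT cells, at 9748 CPM in Hep-ADKTg and 13006 CPM in Hep-ADKWT. A C3 UMI was also found in 78.7% of B cells in Hep-ADKTg and 30.4% in Hep-ADKWT. Serping1, the C1 inhibitor, stood at 1380 CPM in Hep-ADKTg and 1997 CPM in Hep-ADKWT. Of 15 complement and coagulation regulators compared 12 were lower and 1 was past 2-fold lower, Thbd, or thrombomodulin, at -1.01, a share past 2-fold no higher than the 7.52% over all genes. At any size 63.0% of all genes were lower. Cfi, complement factor I, was the list member past 2-fold higher, at 89.8 CPM in Hep-ADKTg and 8.76 CPM in Hep-ADKWT. It stood at 382 CPM in Hep-ADKTg and 487 CPM in Hep-ADKWT hepatocyte barcodes.

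Of 13 MHC class I genes compared 12 were lower, against 63.0% of all genes, with a median of -0.41, and the non-classical genes H2-Q4 at -1.44 and H2-Q6 at -1.04 were past 2-fold, although reads of these near-identical genes may be split. H2-D1 stood at 1203 CPM in Hep-ADKTg and 2082 CPM in Hep-ADKWT. Of 9 insulin-like growth factor genes compared 8 were lower. Igfbp5, a binding protein, stood at 5504 CPM in Hep-ADKTg and 7372 CPM in Hep-ADKWT and was found in 51 Hep-ADKTg and 48 Hep-ADKWT cells. Igfbp6, a second binding protein, stood at 2559 CPM in Hep-ADKTg and 4020 CPM in Hep-ADKWT. Igf1 was higher, at 386 CPM in Hep-ADKTg and 105 CPM in Hep-ADKWT, with 894 CPM in Hep-ADKTg and 1009 CPM in Hep-ADKWT hepatocyte barcodes. Lgals1, which encodes galectin-1, stood at 3173 CPM in Hep-ADKTg and 7897 CPM in Hep-ADKWT, a ratio of -1.32 (-1.42 to -1.21). It was found in 30 Hep-ADKTg and 33 Hep-ADKWT cells, and the 3 cells with the most of it held 56.1% of its UMIs in Hep-ADKTg and 39.7% in Hep-ADKWT. Cavin2, a caveolar coat protein gene, had a ratio of -1.46 and was found in 28 Hep-ADKTg and 31 Hep-ADKWT cells.

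**Figure D4:**
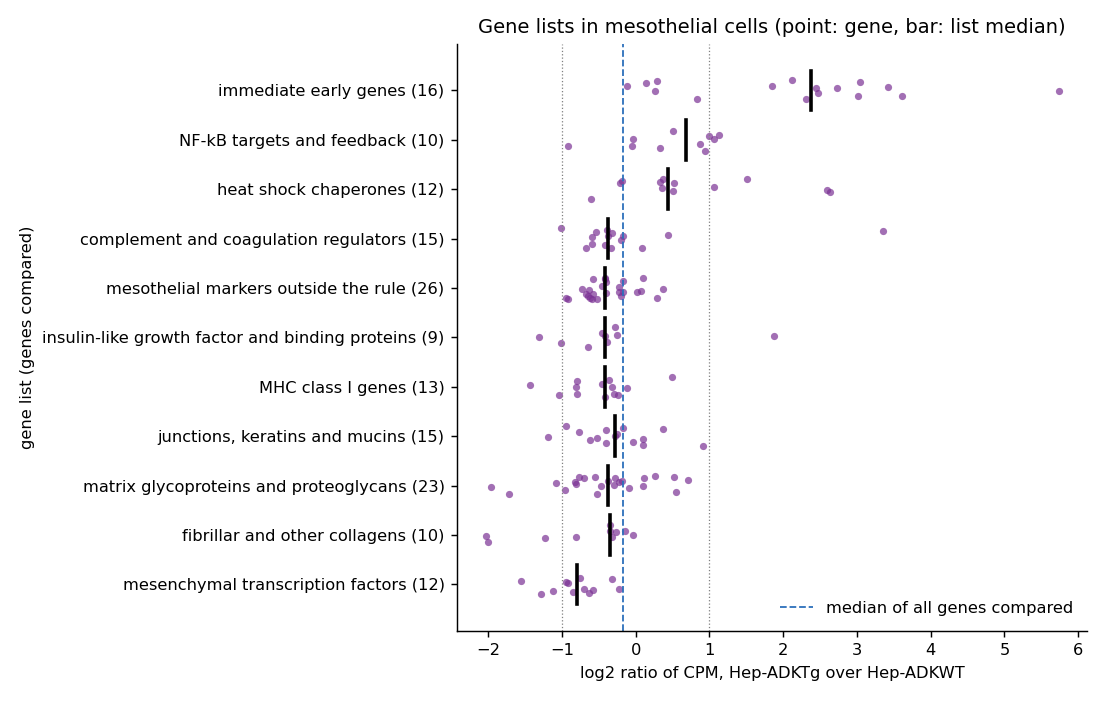
Log2 ratio of CPM, Hep-ADKTg over Hep-ADKWT (x axis), for the genes of 11 lists in mesothelial cells (y axis, with the number of genes compared). Points are genes, black bars are list medians, the dashed line is the median of all genes compared (-0.17) and dotted lines mark 2-fold. The immediate early list has the highest median (2.37) and the mesenchymal transcription factors the lowest (-0.80) of the lists plotted.

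Depth and hepatocyte RNA differed between the mesothelial sums too. Mesothelial cells had a median of 3838 UMIs in Hep-ADKTg and 6281 in Hep-ADKWT, and hepatocyte genes took 5.46% of the summed UMIs in Hep-ADKTg and 0.500% in Hep-ADKWT. The 2 Hep-ADKTg barcodes over 20000 UMIs had 16.7% and 17.1% hepatocyte UMIs and held 66.4% of those of the set, and without them the Hep-ADKTg share was 2.33%. With TMM factors, which add 0.19 to every mesothelial ratio, the calls were 349 higher and 152 lower, and with median-of-ratios factors, which add 0.15, they were 333 higher and 187 lower, against 294 and 291 without factors. Without the 2 deep Hep-ADKTg barcodes they were 149 higher and 160 lower, and with hepatocyte-derived UMIs subtracted 235 higher and 173 lower. The median ratios of the collagen, matrix, transcription factor, MHC class I and mesothelial marker lists stayed below 0 under each alternative run. Those of the immediate early, heat shock, antioxidant and NF-kB lists stayed above 0. Below 0 did not always mean below all genes. With hepatocyte-derived UMIs subtracted the matrix list was at -0.042, against -0.019 over all genes. With at most 10% mitochondrial UMIs the mesothelial marker list was at -0.046, against -0.055 over all genes. Markers of other cell types were low in mesothelial cells: the endothelial list summed to 59.9 CPM in Hep-ADKTg and 114 CPM in Hep-ADKWT and the myeloid list to 41.9 CPM in Hep-ADKTg and 81.8 CPM in Hep-ADKWT. The T and NK list summed to 12.0 CPM in Hep-ADKTg and 61.3 CPM in Hep-ADKWT, and the B and plasma list to 8.98 CPM in Hep-ADKTg and 35.0 CPM in Hep-ADKWT.

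Fibroblast-marker cells are compared with the caution that the Hep-ADKWT set held 8 cells. Their sums were 282146 UMIs in Hep-ADKTg and 71988 in Hep-ADKWT. Of 2010 genes compared, 211 were past 2-fold higher in Hep-ADKTg (10.5%) and 95 were past 2-fold lower (4.73%), with a median ratio of 0.03. At any size 51.4% were higher and 48.6% lower. With TMM factors 333 were higher and 49 lower, and without the cells led by the mesothelial list, which left 41 Hep-ADKTg and 7 Hep-ADKWT cells, 190 of 1553 were higher and 81 lower. Adventitial fibroblast genes differed by less than 2-fold: Clec3b, or tetranectin, stood at 1038 CPM in Hep-ADKTg and 681 CPM in Hep-ADKWT, Cd34 at 737 CPM in Hep-ADKTg and 667 CPM in Hep-ADKWT, and Mfap5, a microfibril protein gene, at 613 CPM in Hep-ADKTg and 486 CPM in Hep-ADKWT. Entpd2, the ectonucleotidase that marks portal fibroblasts, stood at 269 CPM in Hep-ADKTg and 208 CPM in Hep-ADKWT. Col1a1 stood at 737 CPM in Hep-ADKTg (640 to 845) and 708 CPM in Hep-ADKWT (528 to 931). Clec3b, Cd34, Mfap5, Entpd2 and Col1a1 are all on the fibroblast list that chose these cells, so their levels are a description. Of 12 collagen genes compared 9 were higher and 3 lower, with Col4a1, Col5a2 and Col5a3 past 2-fold higher.

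Cxcl13 had 1070 UMIs in 7 of 50 Hep-ADKTg fibroblast-marker cells and none in the 8 Hep-ADKWT cells. The level was 3792 CPM in Hep-ADKTg, and 0 of 8 cells allows a share with a UMI of up to 37.5% in Hep-ADKWT. Without the cells led by the mesothelial list, 10 UMIs in 2 Hep-ADKTg cells were left, at 45.2 CPM, and none in Hep-ADKWT. Nearly all of the Cxcl13 thus came from cells with more UMIs of the mesothelial list than of the fibroblast list. C7, a terminal complement component gene, had 54 UMIs in 19 Hep-ADKTg cells and none in Hep-ADKWT. Sema3c, a secreted semaphorin gene, had 68 UMIs in Hep-ADKTg and 1 in Hep-ADKWT. Pla1a, a phosphatidylserine phospholipase gene, had 66 UMIs in Hep-ADKTg and 1 in Hep-ADKWT. In Hep-ADKTg the cells not led by the mesothelial list held 54 of these C7, 66 of the Sema3c and 66 of the Pla1a UMIs. Fn1, or fibronectin, stood at 1272 CPM in 26 Hep-ADKTg cells and 375 CPM in 4 Hep-ADKWT cells, a ratio of 1.76, which was 1.19 without the cells led by the mesothelial list. Fbln2 and Fbn1, which build elastic fibres and microfibrils, had ratios of 1.58 and 1.56, though Fbln2 is on the fibroblast list that chose these cells.

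Genes on the lower side in Hep-ADKTg fibroblast-marker cells included signalling receptors and matrix modifiers. The stellate marker Colec11 was among them, at a ratio of -2.33, and the stellate list had a median of -0.59. In Hep-ADKWT, 1 of the 8 cells had 63 stellate-list and 95 fibroblast-list UMIs, and another had 42 and 197. A Hep-ADKTg cell had 90 and 110. The part of such cells in the ratios was not tested. Pdgfrb, a PDGF receptor gene, stood at 63.8 CPM in Hep-ADKTg and 306 CPM in Hep-ADKWT, a ratio of -2.26, while Pdgfra stood at 461 CPM in Hep-ADKTg and 486 CPM in Hep-ADKWT. Both genes are on the fibroblast list that chose these cells. Lox, the collagen cross-linking oxidase, stood at 117 CPM in Hep-ADKTg and 514 CPM in Hep-ADKWT. Cxcl12, a chemokine gene of stromal cells, stood at 489 CPM in Hep-ADKTg and 1500 CPM in Hep-ADKWT, and C4b at 571 CPM in Hep-ADKTg and 1556 CPM in Hep-ADKWT. Few cells decided several of these values: the Ccn2 UMIs, at 49.6 CPM in Hep-ADKTg and 597 CPM in Hep-ADKWT, came from 7 Hep-ADKTg and 3 Hep-ADKWT cells. Alcam, an adhesion molecule gene, stood at 174 CPM in Hep-ADKTg and 1056 CPM in Hep-ADKWT, from 5 Hep-ADKTg and 3 Hep-ADKWT cells. Of 15 immediate early genes compared 10 were higher, against 51.4% of all genes, and 5 lower. Past 2-fold higher were 5 of the 15, against 10.5% of all genes, with a list median of 0.52. The list summed to 6132 CPM in Hep-ADKTg and 4959 CPM in Hep-ADKWT, where 1 of the 8 cells reached 18274 CPM and the sum without it was 2794 CPM. The median cell had 5091 CPM of the list in Hep-ADKTg and 3039 CPM in Hep-ADKWT. Fos stood at 525 CPM in Hep-ADKTg and 653 CPM in Hep-ADKWT, which was 113 CPM without that cell. Nr4a1 had 42 UMIs in Hep-ADKTg and 1 in Hep-ADKWT.

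Stellate-marker cells were compared over 1432 genes, with sums of 201605 UMIs in Hep-ADKTg and 58465 in Hep-ADKWT. Of these genes 187 were past 2-fold higher in Hep-ADKTg (13.1%) and 44 were past 2-fold lower (3.07%), with a median of 0.05. At any size 53.6% were higher and 46.4% lower. With TMM factors 252 were higher and 20 lower, and as means over cells 237 and 175. Hgf, the hepatocyte growth factor gene, stood at 1220 CPM in Hep-ADKTg and 616 CPM in Hep-ADKWT, Bmp5 at 774 CPM in Hep-ADKTg and 342 CPM in Hep-ADKWT, and Bmp10 at 149 CPM in Hep-ADKTg and 51.3 CPM in Hep-ADKWT. Rgs5, a brake on G protein signalling, stood at 1925 CPM in Hep-ADKTg and 889 CPM in Hep-ADKWT. Nt5e, which encodes the CD73 enzyme that makes adenosine outside cells, had 37 UMIs in 26 of 76 Hep-ADKTg cells and 1 UMI in 1 of 22 Hep-ADKWT cells. Thinned to 1000 UMIs it was found in 11 of 57 Hep-ADKTg cells and none of 14 Hep-ADKWT cells, and the B cell share before thinning was 2.94% in Hep-ADKTg and 3.25% in Hep-ADKWT. Vcam1, an adhesion receptor gene, stood at 243 CPM in Hep-ADKTg and 51.3 CPM in Hep-ADKWT. Of 21 stellate markers compared 16 were higher and 5 lower, though the list chose these cells. Ecm1, which holds latent TGF-beta inactive in mouse liver, stood at 4613 CPM in Hep-ADKTg and 4481 CPM in Hep-ADKWT, and Colec11, a collectin gene, at 2034 CPM in Hep-ADKTg and 2138 CPM in Hep-ADKWT.

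Contractile genes and Col1a1 were sparse in stellate-marker cells. Acta2, the smooth muscle actin of activated stellate cells, had no UMI in the 76 Hep-ADKTg or the 22 Hep-ADKWT stellate-marker cells, which allows a share of cells with a UMI of up to 3.95% in Hep-ADKTg and 13.6% in Hep-ADKWT. Col1a1 had 16 UMIs in 12 Hep-ADKTg cells and 7 UMIs in 5 Hep-ADKWT cells. Tagln, another contractile gene, stood at 114 CPM in Hep-ADKTg and 479 CPM in Hep-ADKWT, from 12 Hep-ADKTg and 5 Hep-ADKWT cells. Tcf21, a mesodermal factor gene, stood at 273 CPM in Hep-ADKTg and 564 CPM in Hep-ADKWT, and Id3, an inhibitor of bHLH factors, at 665 CPM in Hep-ADKTg and 1625 CPM in Hep-ADKWT. Of 7 collagen genes compared 5 were higher and 2 lower, none past 2-fold. All 6 immediate early genes compared were higher, against 53.6% of all genes. Of these 6, 2 were past 2-fold higher, against 13.1% of all genes, with a list median of 0.60. The list summed to 1483 CPM in Hep-ADKTg and 1095 CPM in Hep-ADKWT, with Fos in 2 of 76 Hep-ADKTg and 1 of 22 Hep-ADKWT cells. Erythroid transcripts took 0.0154% of the summed UMIs in Hep-ADKTg and 7.75% in Hep-ADKWT, where 1 cell reached 415537 CPM. Hepatocyte genes took 4.40% in Hep-ADKTg and 1.20% in Hep-ADKWT. With hepatocyte-derived UMIs subtracted, 174 genes were past 2-fold higher and 58 lower. The part of erythroid transcripts in the ratios was not tested.

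Within each library the mesothelial cells were set against the other cells as a description, since the rule and the split chose them. Among 4843 genes compared in Hep-ADKTg, 368 were past 2-fold higher in mesothelial cells (7.60%) and 568 lower (11.7%). In Hep-ADKWT 626 of 3149 were higher (19.9%) and 359 lower (11.4%). Outside the fixed markers, Myl7, an atrial myosin light chain gene, had 59 UMIs in Hep-ADKTg mesothelial cells and none in the other cells of that library, and 81 against none in Hep-ADKWT. Prph, an intermediate filament gene of peripheral neurons, had 54 UMIs in Hep-ADKTg mesothelial cells and none in the other cells, and the keratin gene Krt7 had 52 there and none in the other cells. On the other side, Abcc9, a potassium channel subunit gene, had no UMI in Hep-ADKTg mesothelial cells and 536 in the other cells, and Fcna, a ficolin gene, had none in mesothelial cells and 338 in the other cells. Cxcl12 had 5 UMIs in Hep-ADKTg mesothelial cells and 920 in the other cells, and 1 UMI against 387 in Hep-ADKWT.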

How the data were processed

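Liver non-parenchymal cells were captured with 10x v3 chemistry after collagenase digestion. The authors deposited 2 filtered matrices of whole-number UMI counts per gene and barcode (32285 genes). Reads were mapped with Cell Ranger 6.1.2 against GRCm38/mm10 and analysed in R 4.1.0 with Seurat 4.0.2, per the submitters' processing notes, while the file headers name Cell Ranger 5.0.1. The series text names SoupX for ambient RNA. The deposited values are whole numbers and were treated as uncorrected counts. Whether reads were counted by strand is not stated.

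UMIs were summed per library and set of cells and scaled to CPM (pandas 2.3.3, numpy 2.4.6 and scipy 1.17.1 under Python 3.11.15). Since each genotype had 1 library, no test was run. Genes with at least 30 UMIs over both libraries were compared, and a gene past 2-fold was called. Depth was 334117 UMIs in Hep-ADKTg and 342527 UMIs in Hep-ADKWT over the mesothelial cells. Genes were named by a rule: detection in 10% or more of the cells on either side, a level in the higher group above that of hepatocyte, Ptprc and endothelial barcodes of its library, and the 12 highest and 12 lowest by the interval bound nearest to 1, plus members of the 34 gene lists. Predicted, mitochondrial, ribosomal, haemoglobin and immunoglobulin genes were left out of that rule. Hepatocyte barcodes had at least 20% of UMIs on the hepatocyte list and no marker, endothelial or Ptprc UMI, and endothelial barcodes had at least 3 UMIs of Stab2, Clec4g and Kdr. B cells had a Ptprc UMI and at least 3 UMIs of B cell markers. The members and lists were chosen with earlier results of these data known, and the stellate-marker and fibroblast-marker sets, with the genes named in them, after values were seen. Scrublet (scanpy 1.11.5) called no doublet automatically, so it did not work here and no cell was removed; 404 Hep-ADKTg and 479 Hep-ADKWT kept barcodes, and 0 Hep-ADKTg and 1 Hep-ADKWT members, scored over 0.2. TMM factors came from edgeR 4.0.16. Promoter windows were RefSeq's. Scripts were tested on simulated counts. Alternatives were other scalings and gene minimums, means over cells, subtraction of hepatocyte-derived UMIs, thinning to 1000 UMIs, a doublet score limit, at least 5 marker UMIs, at least 2 Msln plus Upk3b UMIs, at most 10% mitochondrial UMIs, and 3 chosen after seeing the data (no barcode over 20000 UMIs, Kdr not counted, no divided cell led by the mesothelial list).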

Additional observations from a re-analysis of the deposited data

Results flagged for a closer look

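In all, 4 genes stood past 2-fold in opposite directions between Hep-ADKTg and Hep-ADKWT in 2 of the cell sets, each with a counting interval clear of equality, out of 657 genes tabulated. The differences between sets were not tested, because each genotype had 1 library. Igfbp3, a binding protein for insulin-like growth factors, had a log2 ratio of -1.02 in mesothelial cells, against 1.50 in stellate-marker cells and 2.38 in fibroblast-marker cells. The last 2 ratios rest on 39 UMIs in Hep-ADKTg and 4 in Hep-ADKWT, and on 61 UMIs in Hep-ADKTg and 3 in Hep-ADKWT. Igfbp3 is also on the fibroblast list that split these 2 sets, so its ratios in them only describe the split cells. St3gal5, which makes the ganglioside GM3, had a ratio of 1.10 in mesothelial cells and -1.16 in stellate-marker cells, and stood at 173 CPM in Hep-ADKTg and 158 CPM in Hep-ADKWT hepatocyte barcodes. Lamb1, the laminin beta 1 chain, had a ratio of -1.08 in mesothelial cells and 1.13 in fibroblast-marker cells. Ccn2, a matricellular protein gene, had ratios of 3.26 in mesothelial and 2.10 in stellate-marker cells and of -3.59 in fibroblast-marker cells, where 3 Hep-ADKWT cells held its 43 UMIs.

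Signal also appeared in barcodes that the rule left out. Of those removed for endothelial UMIs alone, 13 in Hep-ADKTg and 60 in Hep-ADKWT had a UMI of Msln or Upk3b. The ones with no Stab2 or Clec4g UMI numbered 5 in Hep-ADKTg and 29 in Hep-ADKWT and held the mesothelial list at 4.62% of their UMIs in Hep-ADKTg and 4.72% in Hep-ADKWT. Fos stood there at 596 CPM in Hep-ADKTg, found in 5 of 5 barcodes, and at 8.31 CPM in Hep-ADKWT, found in 3 of 29. These barcodes took no part in the choice of the mesothelial cells, and they come from the same 2 libraries.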

How the results depend on the processing

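No paired analysis was possible because each genotype had 1 library and the labels number no replicates. The mesothelial cells had 294 genes past 2-fold higher and 291 lower in Hep-ADKTg. The lower count was 152 with TMM factors, 187 with median-of-ratios factors and 173 with hepatocyte-derived UMIs subtracted. Higher and lower counts were 808 and 1024 with a minimum of 10 UMIs per gene, 97 and 36 with 100, 1254 and 1453 with none, 48 and 20 after thinning to 1000 UMIs, 116 and 163 with at most 10% mitochondrial UMIs, and 149 and 160 without barcodes over 20000 UMIs. Genes higher in Hep-ADKTg were 50.3% of the calls, 69.7% with TMM and 64.0% with median-of-ratios factors. The other cells had 338 higher and 114 lower, which became 1059 and 606 with a minimum of 10, 61 and 19 with 100, 1268 and 1066 with none, 786 and 455 as means over cells, and 88 and 36 after thinning, while the lower count was 255 after subtraction. The fibroblast-marker cells had 211 higher and 95 lower, which became 333 and 49 with TMM factors, 299 and 52 with median-of-ratios factors, 853 and 591 with a minimum of 10, 48 and 8 with 100, 971 and 1411 with none, 194 and 146 as means over cells and 38 and 14 after thinning. The stellate-marker cells had 187 higher and 44 lower, which became 252 and 20 with TMM factors, 246 and 26 with median-of-ratios factors, 770 and 358 with a minimum of 10, 43 and 9 with 100, 1019 and 1181 with none, 237 and 175 as means over cells and 67 and 52 after thinning. Genes higher in Hep-ADKTg were 69.0% of the fibroblast-marker calls, against 87.2% with TMM factors, and 81.0% of the stellate-marker calls, against 92.6%. As means over cells the ratio of Fn1 in fibroblast-marker cells was 1.12 and that of Vcam1 in stellate-marker cells 1.38. Fewer genes or cells enter several of these settings, and beyond that the cause was not tested. The Hep-ADKWT share of members was 0.918% with Kdr not counted, and the Hep-ADKTg mesothelial share of members was 21.4% after thinning. The hepatocyte list in fibroblast-marker cells turned to -0.66 after subtraction of hepatocyte-derived UMIs, against 2.23 without. None of the 24 genes named by the rule in mesothelial cells changed direction in the settings that gave it a ratio, which were 10 to 13 per gene: Fos ranged over 3.59 to 4.71, Fosb over 5.71 to 6.29, Col1a1 over -2.03 to -1.13 and Lgals1 over -1.32 to -0.89. The gene minimums and the doublet limit could not move these ratios, because they changed neither the cells nor the UMI sums of this set. The 24 genes were also picked as the highest and lowest in these same data, so their steady direction is a description only. Cell number limits the fibroblast-marker comparison, with 8 Hep-ADKWT cells, and depth the stellate-marker one, with a median of 1380 UMIs per Hep-ADKWT cell.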
